A study of Mus musculus with 7 samples.

Results

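The plaque-associated microglia genes are 35 genes that microglia next to amyloid plaques are known to express at raised levels. Their rows were picked by symbol from the count tables of 7 mouse cortices, and all 35 were found among the 23413 genes counted in each table. The mice carried the amyloid transgenes of the APP/PS1 line, which the mouse prion promoter drives, on a B6 background in both diet groups, so every library came from a mouse with the amyloid transgenes. Cortex was collected at 13 months of age, after 7 months on a ketogenic diet (KD, 3 mice) or a control diet (CD, 4 mice, labelled SD) begun at 6 months. CD supplied 74% of its energy as carbohydrate, 10% as protein and 16% as fat, and KD supplied less than 0.5% as carbohydrate, 10% as protein and 90% as fat. The mice were housed singly. No wild-type cortex was among these libraries, so the levels cannot be set against a brain without transgenes.

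Microglia are the resident macrophages of the brain. Around amyloid plaques they lower genes of the resting state and raise a program of lipid handling, lysosomal digestion and phagocytosis, of which a large portion depends on the surface receptor TREM2 and its signaling partner TYROBP. In whole cortex such genes are read from a mixture of all cell types, and fewer microglia and less RNA per microglial cell cannot be told apart.

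The libraries held 22272883 to 36614954 counts, of which the 35 genes took 0.253% to 0.382%. Levels are given as CPM, read counts scaled to a common library size with edgeR's TMM factors. All 35 genes passed edgeR's filter on low counts, with single counts between 9 and 34145. The mouse genes App, at 2689 to 3344 CPM, and Prnp, at 2595 to 3463 CPM, were present in every library, and a count by mouse symbol does not check the transgenes. The X-inactivation transcript Xist stood at 248 to 531 CPM in CD 1, CD 2, KD 1 and KD 2 and at 0.31 to 3.08 CPM in CD 3, CD 4 and KD 3. The Y-linked gene Ddx3y stood at 301 to 333 CPM in the latter 3 and at no more than 0.308 CPM in the former 4. The labels give no sex, and the study used both sexes. CD 4 and KD 3 also held more RNA of tissue next to the cortex: the meningeal fibroblast gene Dcn was at 121 CPM in CD 4 and 72.6 CPM in KD 3 against 10.6 to 23.9 CPM elsewhere, and the olfactory bulb gene Cdhr1 at 31.3 and 12.7 CPM against 1.0 to 3.42 CPM. The summed level of 6 oligodendrocyte genes was 1029 CPM in CD 3 and 1059 CPM in KD 3, and 2045 to 4018 CPM in the other 5 libraries.

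The first comparison asked whether KD altered the plaque-associated genes. No gene of the 35 passed an unadjusted p of 0.05 in edgeR's quasi-likelihood test, where 3.19% of the 15881 tested genes did. After Benjamini-Hochberg adjustment over all tested genes 0 of the 35 and 0 of all genes (0%) were called, and the smallest adjusted p was 0.979. The fitted log2 fold change was above 0 for 24 of the 35 genes, against 49.0% of all tested genes. Over the 35 genes the log2 fold change had a median of 0.12, and over all tested genes the median was close to 0. Without KD 1 the count fell to 11 of 35 and the median turned to -0.08, so the excess of genes with a higher mean in KD rests on that 1 library. The genes varied more between mice of 1 diet than most genes did. Their median biological coefficient of variation was 27.9%, against 17.5% for all tested genes, and 28 of the 35 lay above the latter value.

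**Figure D1:**
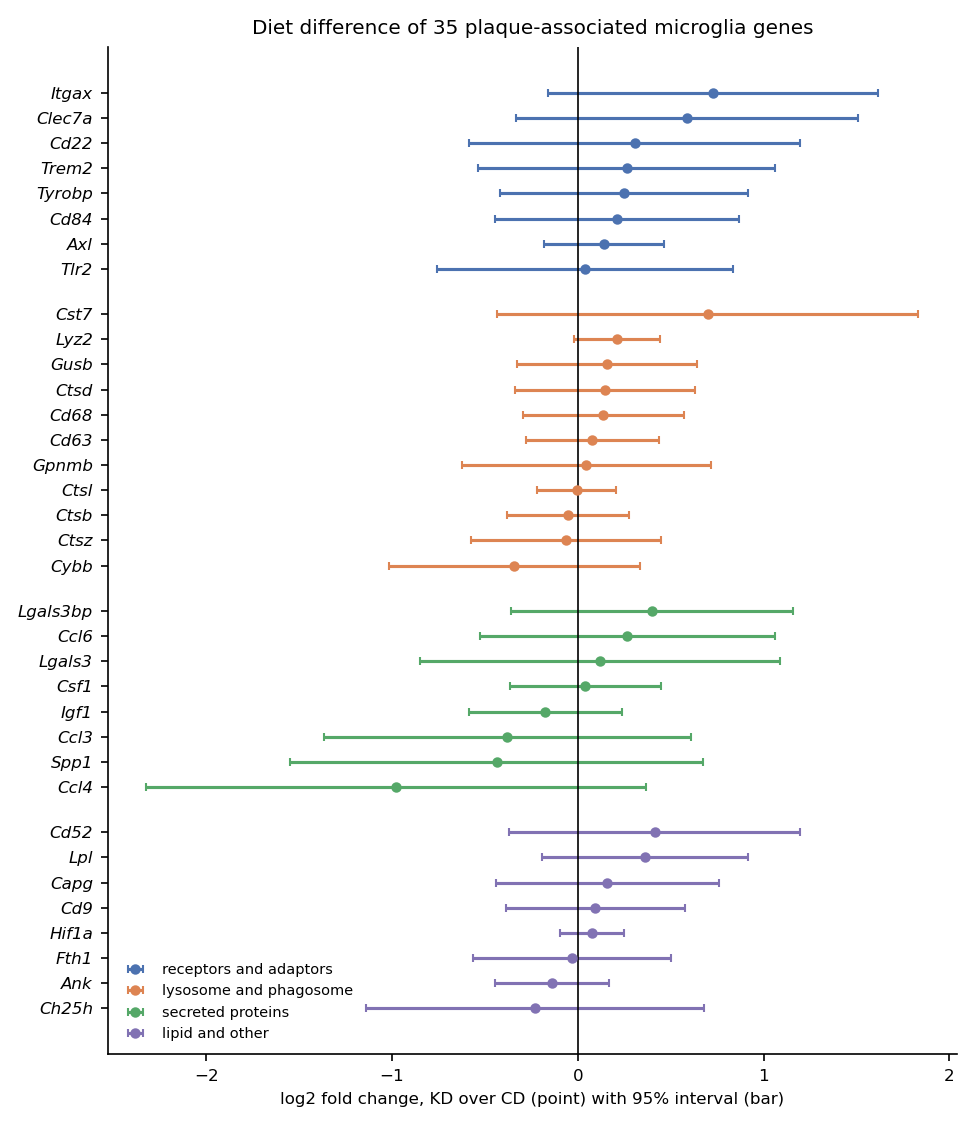
The horizontal axis gives the fitted log2 fold change of KD over CD for each of the 35 genes (points), with its 95% interval (bars), and colors mark the roles of the genes. Every interval crosses 0, and Itgax (0.73), Cst7 (0.70) and Ccl4 (-0.98) lie farthest from it.

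The width of the intervals set what these 7 libraries could show. For 21 of the 35 genes the 95% interval lay within a 2-fold difference in either direction, and for 12 it lay within 1.5-fold. For 9 genes the interval reached a doubling in KD, and for 5 it reached a 2-fold difference in the other direction.

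Receptors and adaptors came first. Trem2 was at 32.0, 22.6, 19.5 and 11.1 CPM in CD 1 to CD 4 and at 34.8, 24.8 and 16.9 CPM in KD 1 to KD 3. The diets overlapped throughout, with KD 1 highest and CD 4 lowest of the 7. The fitted KD level was 1.2 times that of CD, with a 95% interval from 0.691 to 2.08. Tyrobp, the adaptor through which TREM2 signals, followed the same order within each diet. It was at 73.5, 58, 56.4 and 31.8 CPM in CD and at 86.8, 63.9 and 44.9 CPM in KD, a log2 fold change of 0.25 ± 0.29 (SE). Per kilobase of exon it was the most abundant of the 8 receptors and adaptors, at 82.3 CPM per kb in CD and 97.8 CPM per kb in KD, while Trem2 stood at 4.30 and 5.16 CPM per kb.

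Clec7a encodes Dectin-1, a lectin receptor that also signals in plaque-associated microglia. Its level was 14.5, 15.6, 14.9 and 4.68 CPM in CD and 26.7, 15.8 and 13.5 CPM in KD. CD 4 lay far below the other 3 CD libraries, which were close to one another, and KD 1 lay far above the other KD libraries. The log2 fold change was 0.59 ± 0.40 (SE). Itgax, the CD11c integrin subunit that marks these cells, was at 7.49, 7.18, 15.7 and 5.42 CPM in CD and at 21.3, 13.5 and 9.60 CPM in KD. Each KD library exceeded CD 1, CD 2 and CD 4, and only CD 3 lay within the KD range. Its log2 fold change of 0.73 ± 0.39 (SE) was the largest upward one of the 35 genes. Without CD 3 it was 1.14 and passed an unadjusted p of 0.05, as 7.38% of all tested genes did, but not the adjusted threshold (adjusted p = 0.674 by edgeR).

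The other receptors also overlapped between the diets. Axl, a receptor kinase for cell debris tagged by Gas6, was at 44.9 to 57.4 CPM in CD and 46.4 to 65.9 CPM in KD. Cd84, an adhesion receptor of immune cells, was at 8.60 to 15.4 CPM in CD and 9.02 to 20.5 CPM in KD. Tlr2, a receptor for microbial and misfolded ligands, was at 3.84 to 7.49 and 3.23 to 8.16 CPM. Cd22, a lectin that restrains phagocytosis, was the least abundant of the 35 per kilobase, at 0.794 to 1.81 CPM in CD and 1.08 to 2.29 CPM in KD. All 8 receptors and adaptors had a fitted log2 fold change above 0, with a median of 0.26. Without KD 1 only 3 of the 8 stayed above 0 and the median was -0.02.

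**Figure D2:**
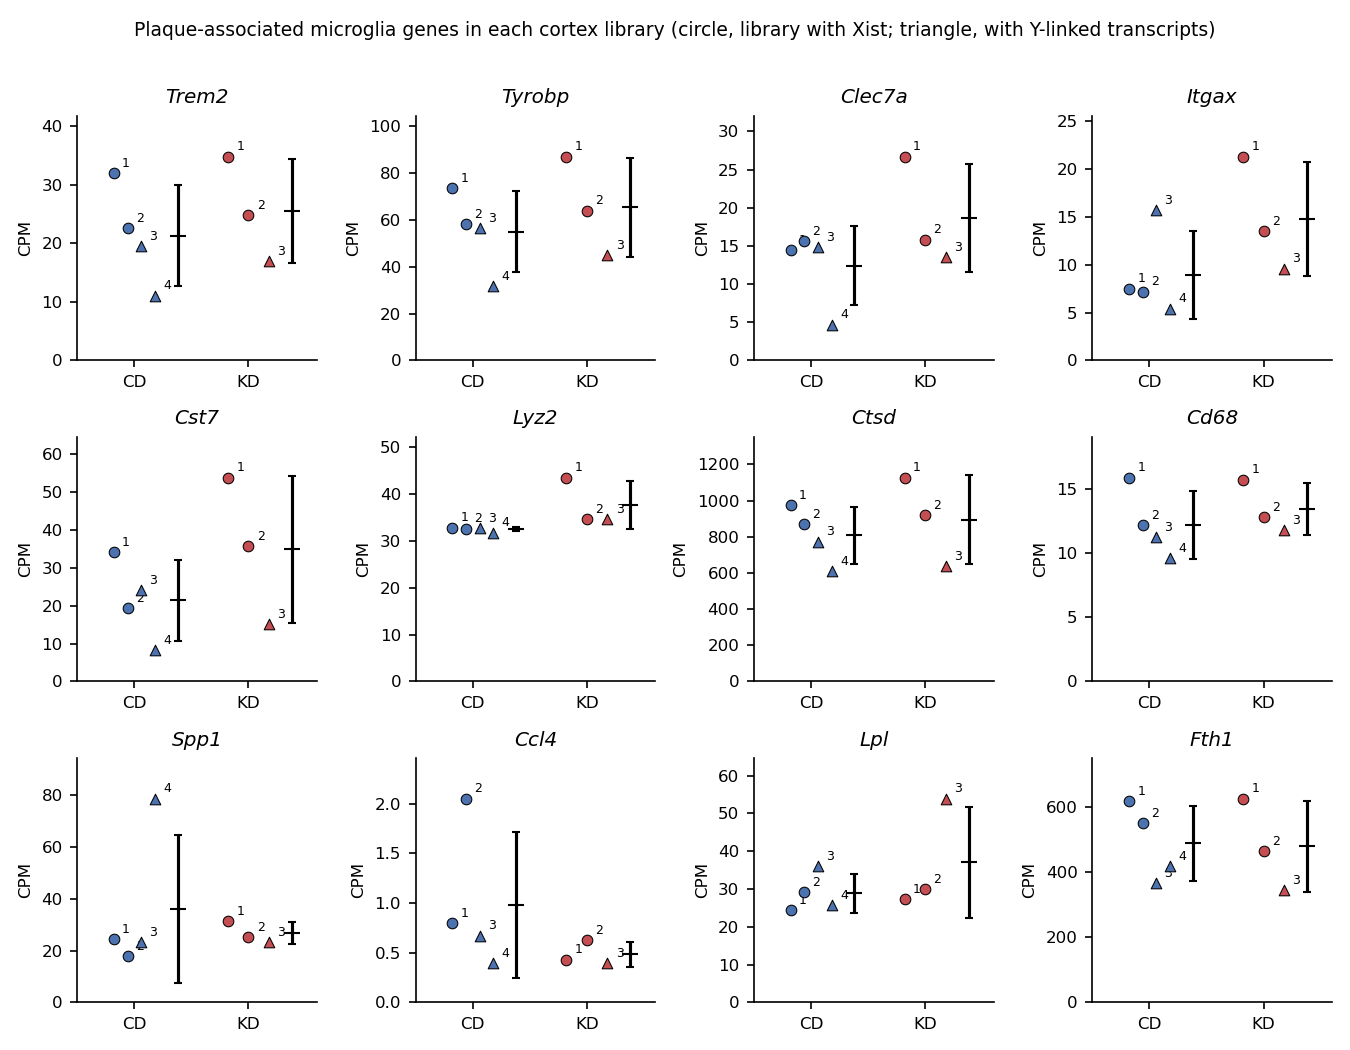
Each panel plots the CPM of 1 gene (vertical axis, linear, from 0) in the CD (blue) and KD (red) libraries, numbered as in the text, with the mean and SD of each diet as bars to the right (n = 4 and 3). Circles are libraries with Xist and triangles those with Y-linked transcripts. The diets overlap for 11 of these 12 genes, KD 1 is often highest, and CD 4 is low for Trem2, Tyrobp, Clec7a and Cst7 but high for Spp1.

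Lysosome and phagosome genes made up 11 of the 35. Cst7, which encodes cystatin F, an inhibitor of lysosomal cysteine proteases, varied most between libraries. It was at 34.1, 19.4, 24.2 and 8.34 CPM in CD and at 53.8, 35.7 and 15.1 CPM in KD, a 6.45-fold span over the 7 libraries. KD 1 and KD 2 exceeded every CD library, whereas KD 3 lay below 3 of the 4. The log2 fold change was 0.70 ± 0.50 (SE), and it stayed between 0.25 and 1.06 when each library was left out in turn. Without both CD 4 and KD 3, the 2 libraries with the most meningeal fibroblast RNA and a choice made after the data were seen, it was 0.79, and Cst7, Clec7a and Gusb then passed an unadjusted p of 0.05, a level that 2.54% of all tested genes reached (smallest adjusted p of the 3 genes 0.999 by edgeR).

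Lyz2, the lysozyme of microglia and macrophages, was the 1 gene of the 35 whose diets did not overlap. Its level was 32.9, 32.7, 32.8 and 31.8 CPM in CD and 43.5, 34.6 and 34.7 CPM in KD. The CD libraries were almost equal, KD 2 and KD 3 lay just above them, and KD 1 lay well above. The log2 fold change was 0.21 ± 0.10 (SE), with a fold interval from 0.985 to 1.36. Among all tested genes 2.05% had every KD library above every CD library and 2.07% every KD library below, so 1 of 35 is close to the background share. Reads of Lyz2 could also match its near copy Lyz1, to which 0 to 4 counts a library were assigned.

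The cathepsins digest protein in the lysosome. Ctsd, the aspartic cathepsin, was the most abundant of the 35 per kilobase, at 343 CPM per kb in CD and 380 CPM per kb in KD. Its level was 976, 871, 772 and 609 CPM in CD and 1126, 920 and 637 CPM in KD. The diets overlapped, with CD 4 and KD 3 lowest, and the log2 fold change was 0.15 ± 0.21 (SE). The cysteine cathepsins Ctsb, at 572 to 739 CPM in CD and 518 to 736 CPM in KD, and Ctsl, at 154 to 176 and 146 to 175 CPM, had log2 fold changes of -0.05 and -0.01. The interval for Ctsl, whose lower bound was 0.861 times the CD level, was among the narrowest. Ctsz was at 54.9 to 81.7 CPM in CD and 43.8 to 83.8 CPM in KD. Neurons and other cortical cells also express Ctsb, Ctsd and Ctsl, so these levels are not those of microglia alone.

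Gusb, the lysosomal beta-glucuronidase, was at 25.5 CPM in CD 1, at 19.9 to 20.3 CPM in CD 2 to CD 4 and at 29.8, 26.3 and 15.5 CPM in KD. KD 1 and KD 2 were above all CD libraries and KD 3 was below all of them. Its log2 fold change was 0.16 ± 0.21 (SE), and without KD 3 it was 0.39 (adjusted p = 0.998 by edgeR), past an unadjusted p of 0.05 with 2.22% of all tested genes. Cd68, a lysosomal membrane protein of phagocytes, was at 9.60 to 15.9 CPM in CD and 11.8 to 15.8 CPM in KD. The tetraspanin Cd63 was at 13 to 19.8 and 16.6 to 19.7 CPM, and Gpnmb, a glycoprotein of lipid-laden macrophages, at 5.19 to 9.42 and 5.53 to 11.4 CPM. Cybb, the catalytic subunit of the phagocyte NADPH oxidase, was at 2.63 to 4.16 CPM in CD and 1.89 to 3.45 CPM in KD. Of the 11 genes 7 had a fitted log2 fold change above 0, with a median of 0.08.

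Secreted proteins, 8 of the 35, held the genes with the lowest KD levels relative to CD. Ccl4, a chemokine, was at 0.8, 2.05, 0.672 and 0.395 CPM in CD and at 0.432, 0.629 and 0.398 CPM in KD. CD 2 stood above all others, and CD 4 lay below the 3 KD libraries. The log2 fold change was -0.98 ± 0.59 (SE). It was -1.24 without CD 4, where it passed an unadjusted p of 0.05 with 2.73% of all tested genes, and it ranged from -1.24 to -0.33 when each library was left out in turn. Ccl3, a chemokine that signals through Ccr1, was at 3.32, 5.54, 1.99 and 1.63 CPM in CD and at 3.02, 2.13 and 2.04 CPM in KD. CD 2 was again highest. The log2 fold change was -0.38 ± 0.43 (SE) with all libraries and 0.05 without CD 2.

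Spp1, osteopontin, was at 24.3, 17.7, 23.2 and 78.6 CPM in CD and at 31.4, 25.1 and 23.4 CPM in KD. The high value was that of CD 4, the library with the most RNA of meningeal fibroblasts and border macrophages. In it the border macrophage gene Mrc1 was at 22.3 CPM, against 7.46 to 13 CPM in the other 6 libraries, and the summed level of 8 border macrophage genes was 78.4 CPM against 31.2 to 44.6 CPM. Their part in the Spp1 value was not tested. For Spp1 the log2 fold change was -0.44 ± 0.49 (SE) with all libraries and 0.29 without CD 4. Igf1, a growth factor of microglia and neurons, was also highest in CD 4, at 21.8 CPM against 12.7 to 17.9 CPM elsewhere.

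The remaining secreted proteins lay within overlapping ranges. Csf1, the ligand of the microglial survival receptor Csf1r, was at 20.3 to 26.6 CPM in CD and 19.2 to 32.1 CPM in KD. Ccl6, a chemokine, was at 5.45 to 17.1 and 11.2 to 17.8 CPM. Lgals3, galectin-3, was below 2 CPM in every library, at 0.764 to 1.27 and 0.599 to 1.64 CPM, and Lgals3bp, which encodes a protein that binds it, was at 10.2 to 20.3 and 12.3 to 30.0 CPM. Of the 8 genes 4 had a fitted log2 fold change above 0, with a median of -0.07.

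Lipid handling and other functions made up the last 8 genes. Lpl, lipoprotein lipase, was at 24.4, 29.1, 36.0 and 25.7 CPM in CD and at 27.4, 29.9 and 53.9 CPM in KD. KD 3 stood above the rest, whereas it was the lowest KD library for 27 of the 35 genes. The log2 fold change was 0.36 ± 0.24 (SE) with all libraries and -0.01 without KD 3. Ch25h, which makes 25-hydroxycholesterol, was at 0.855 to 2.09 CPM in CD and 0.708 to 1.38 CPM in KD. Fth1, the ferritin heavy chain, was at 617, 550, 367 and 419 CPM in CD and at 625, 465 and 346 CPM in KD, a log2 fold change of -0.03 ± 0.23 (SE). Its lowest libraries, CD 3 and KD 3, were those with the least oligodendrocyte RNA, and oligodendrocytes also express it. The part of that RNA in the value was not tested.

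Ank, a membrane protein that exports pyrophosphate, was at 271, 254, 223 and 208 CPM in CD and at 232, 241 and 178 CPM in KD. The KD libraries reached lower, with 2 of 3 inside the CD range, and the log2 fold change was -0.14 ± 0.13 (SE). Hif1a, the oxygen-sensing transcription factor, was the steadiest gene of the 35, at 179 to 204 CPM in CD and 196 to 201 CPM in KD. Cd9, a tetraspanin, was at 31.4 to 46.4 and 31.1 to 56.9 CPM, Cd52, a small glycoprotein of immune cells, at 3.0 to 8.15 and 5.26 to 10.1 CPM, and Capg, an actin-capping protein, at 3.46 to 5.45 and 3.89 to 6.82 CPM. Of the 8 genes 5 had a fitted log2 fold change above 0, with a median of 0.09.

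The order of the libraries was shared by many of the 35 genes. KD 1 was the highest of the 7 libraries for 22 genes, where it was highest for 12.8% of all tested genes. CD 4 was the lowest for 14 genes and KD 3 for 11, against 18.8% and 19.9% of all tested genes. Among the 18 genes expressed mainly by microglia or macrophages CD 4 was lowest for 12 and KD 1 highest for 14. Their summed level was 349, 303, 277 and 192 CPM in CD and 441, 317 and 230 CPM in KD. Among the 17 genes that other cortical cells also express KD 3 was lowest for 9 and CD 4 for 2.

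**Figure D3:**
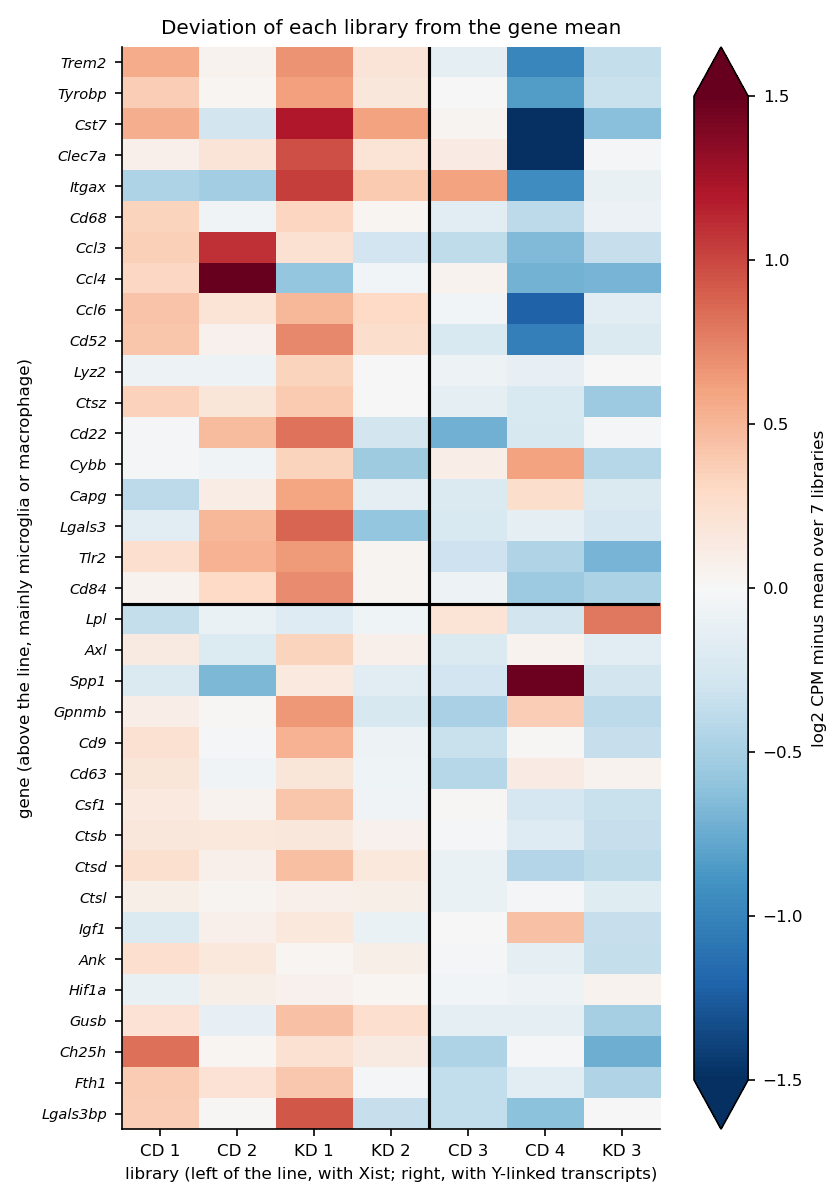
Colors give the log2 CPM of each of the 35 genes (rows) in each library (columns) minus its mean over the 7 libraries, and values beyond 1.5 in size take the end colors. The columns of KD 1 and CD 1 are mostly red and those of CD 3, CD 4 and KD 3 mostly blue, and Spp1 and Lpl are the reddest cells of the CD 4 and KD 3 columns.

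The same order followed the sex-linked transcripts. For 16 of the 35 genes every library with Xist (CD 1, CD 2, KD 1 and KD 2) lay above every library with Y-linked transcripts (CD 3, CD 4 and KD 3), against 4.99% of all tested genes. No gene of the 35 showed the reverse, against 5.31% of all tested genes. Of 14 genes of resting microglia 4 showed the same split and 0 the reverse, so the split was not particular to the 35 genes. The 16 genes included Trem2, at 22.6 to 34.8 CPM in the 4 libraries with Xist and 11.1 to 19.5 CPM in the other 3, Tyrobp, at 58 to 86.8 and 31.8 to 56.4 CPM, and Ctsd, at 871 to 1126 and 609 to 772 CPM. Cst7, Clec7a and Itgax were not among them. These 2 sets of libraries were formed from the data and are not groups of the study, so no test was made between them. The 3 libraries with Y-linked transcripts also held more meningeal fibroblast RNA, with a summed level of 6 genes of 69.2 to 259 CPM against 33.4 to 45.5 CPM, and tissue content and sex cannot be told apart here.

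Diet values were therefore also taken within each set of libraries, a choice made after the data were seen. Among the 4 libraries with Xist, 25 of the 35 genes were higher in the 2 KD libraries by the fitted value, with a median log2 fold change of 0.10. There 4 of the 35 (11.4%) passed an unadjusted p of 0.05, against 9.75% of all tested genes, and the smallest adjusted p among them was 0.221 (edgeR). Itgax was higher by a log2 value of 1.24 and Spp1 by 0.43, while Ccl3 was lower by a log2 value of -0.78 and Ccl4 of -1.38. Among the 3 libraries with Y-linked transcripts, of which 1 was KD, 13 of the 35 were higher in KD, with a median of -0.13. With a single KD library no call was drawn from that set, in which Lpl had a log2 fold change of 0.80 and Itgax of -0.14. Whether the diet difference itself differed between the 2 sets was not tested. With Xist (its log2 CPM) as a covariate over all 7 libraries, 21 of the 35 genes were above 0, the median was 0.07, and Ank was the 1 gene with an unadjusted p under 0.05 (log2 fold change -0.17), against 6.52% of all tested genes.

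**Figure D4:**
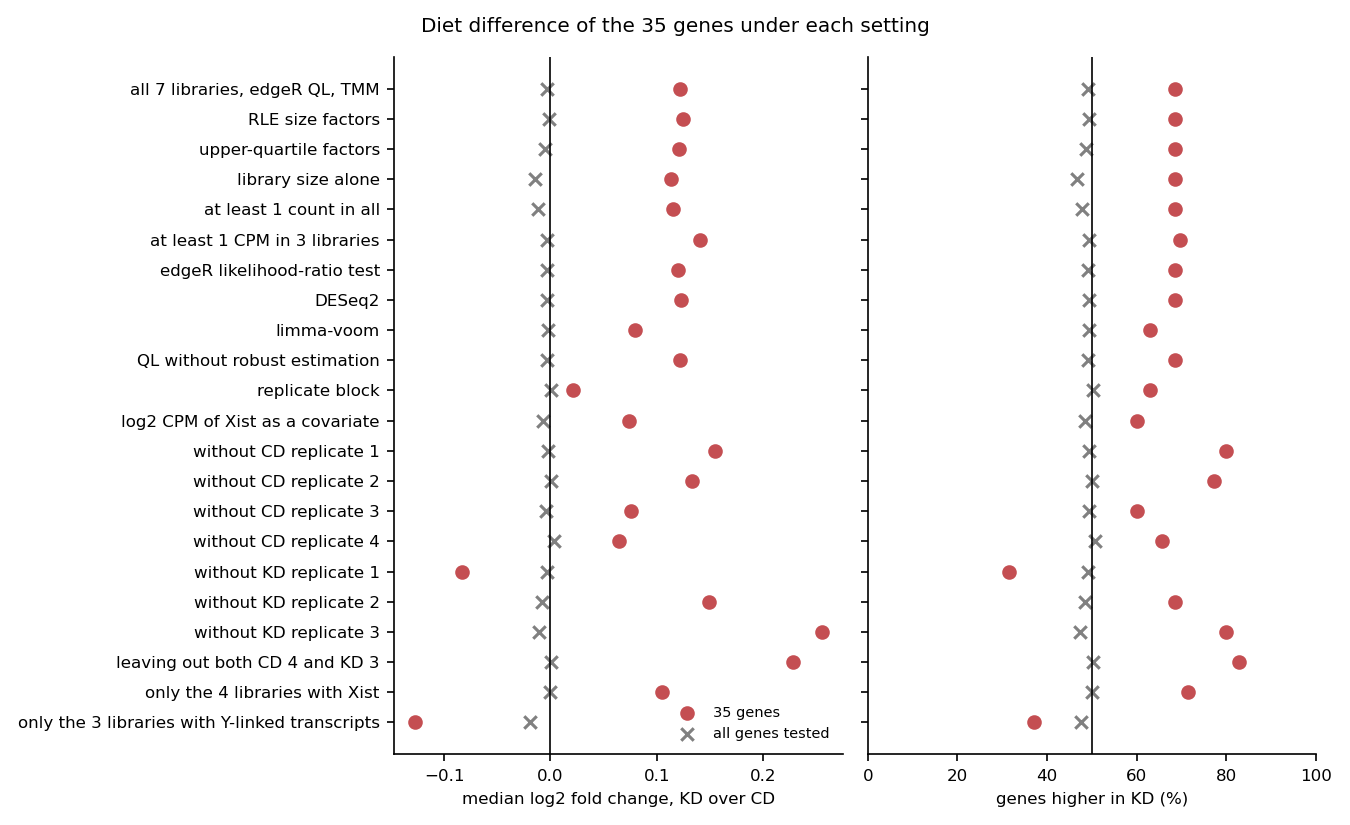
For each way of fitting (rows), the left panel gives the median log2 fold change of KD over CD and the right panel the percentage of genes higher in KD, for the 35 genes (red) and for all genes tested in that fit (gray crosses). The 35 genes lie right of all tested genes except without KD replicate 1 and in the 3 libraries with Y-linked transcripts.

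Genes of resting microglia were set beside the plaque-associated ones, since the program lowers them. Of 14 such genes 11 had a fitted log2 fold change above 0 (median 0.21), against 49.0% of all tested genes. Of the 14, 2 were higher in KD at an unadjusted p under 0.05, against 1.66% of all tested genes in that direction. Csf1r was at 108, 93.8, 94.4 and 80.3 CPM in CD and at 148, 104 and 108 CPM in KD (log2 fold change 0.35 ± 0.15 SE). Itgam, the CD11b integrin subunit, was at 35.9, 35.1, 32.6 and 24.1 CPM in CD and at 51.3, 43.7 and 37.6 CPM in KD, where every KD library lay above every CD library (log2 fold change 0.47 ± 0.16 SE). Both had an adjusted p of 0.979 by edgeR, so neither was called. P2ry12 was at 38.9 to 72.8 CPM in CD and 62.9 to 73.2 CPM in KD, Tmem119 at 14.3 to 26.7 and 13.5 to 18.6 CPM, and Cx3cr1 at 64.1 to 90.1 and 84.6 to 111 CPM. CD 4 was the lowest of the 7 libraries for 11 of the 14. KD 1 was the highest of the 7 for 10 of the 14, against 12.8% of all tested genes, and the highest KD library for all 14. The median log2 deviation of the 14 from their means was 0.26, -0.05, -0.13 and -0.58 in CD and 0.37, 0.03 and -0.05 in KD.

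The balance between both programs overlapped between the diets. The summed CPM of the 18 mainly microglial plaque-associated genes was 0.426, 0.445, 0.428 and 0.400 times that of the 14 resting-state genes in CD and 0.468, 0.440 and 0.346 times in KD. The KD libraries held both the highest and the lowest ratio, with the CD libraries between them.

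Genes that act with the 35 were read from lists of the pathway. Of 10 genes listed for TREM2 and TYROBP signaling 9 had a fitted log2 fold change above 0 (median 0.19), against 49.0% of all tested genes. None passed an unadjusted p of 0.05. In KD 1, 0 of the 10 lay below their mean log2 CPM over the 7 libraries, against 6 in KD 2 and 6 in KD 3. The kinase Syk was at 4.98 to 7.84 CPM in CD and 5.30 to 8.07 CPM in KD, and the phospholipase Plcg2 at 7.33 to 9.03 and 6.5 to 9.15 CPM. Of 13 further plaque-associated genes 11 were tested, 10 were above 0 (median 0.15), against the same 49.0%, and none passed. In KD 1, 1 of these 11 lay below its mean log2 CPM, against 5 in KD 2 and 5 in KD 3. Apoe, the lipid carrier, was at 537 to 755 CPM in CD and 570 to 690 CPM in KD. Of 12 ligands, receptors and subunits that pair with the 35, Csf1r was higher and Gas6 and Ccr1 were lower in KD at an unadjusted p under 0.05, the latter against 1.52% of all tested genes. Gas6, a ligand of Axl, was at 88.4, 79.9, 65.1 and 105 CPM in CD and at 65.8, 64.0 and 59.5 CPM in KD (log2 fold change -0.43 ± 0.15 SE). Ccr1 was at 1.40, 1.33, 1.41 and 1.58 CPM in CD and at 0.820, 0.359 and 0.664 CPM in KD, with no overlap (log2 fold change -1.23 ± 0.35 SE). The adjusted p was 0.979 for both by edgeR.

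Of the marker lists of other cells, only that of neurons held a gene past an unadjusted p of 0.05. Of 8 border macrophage genes 7 were lower in KD, with none past an unadjusted p of 0.05 and summed levels of 31.2 to 78.4 CPM in CD and 34.7 to 39.5 CPM in KD. Of 9 monocyte and neutrophil genes 3 were tested, and the 8 with a row in the tables had summed levels of 1.06 to 4.21 and 1.12 to 1.33 CPM. The monocyte gene Ccr2 reached 2.32 CPM in CD 4 and was under 1 CPM elsewhere, and the neutrophil gene S100a8 stayed between 0.205 and 0.519 CPM. The astrocyte gene Gfap was at 213 to 392 CPM in CD and 247 to 394 CPM in KD. Of the neuron genes Gad1 was lower in KD (log2 fold change -0.37, adjusted p = 0.979 by edgeR). The choroid plexus gene Ttr was at 427 CPM in CD 1 and 5.81 to 43.8 CPM elsewhere, and the olfactory bulb gene Eomes at 7.47 CPM in CD 4 and under 1 CPM elsewhere.

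Promoter sequence was read for 4 genes on which the results above turn. The RefSeq table of promoters (mm10) held 30 of the 35 genes and 16375 genes in all, and the 250 bases before each start were searched on both strands. The 4 promoters shown are those of the most variable lysosomal gene, of the gene with the largest upward diet difference, of the most abundant gene and of the gene raised in CD 4, each 5′ to 3′ on the strand of the gene.
Cst7 (mm10, chr2:150570165-150570414, + strand): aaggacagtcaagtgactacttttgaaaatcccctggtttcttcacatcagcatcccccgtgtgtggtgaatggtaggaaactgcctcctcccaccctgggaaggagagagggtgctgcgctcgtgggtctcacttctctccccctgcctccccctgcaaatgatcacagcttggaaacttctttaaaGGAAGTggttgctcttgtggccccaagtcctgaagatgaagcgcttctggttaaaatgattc
Itgax (mm10, chr7:128129300-128129549, + strand): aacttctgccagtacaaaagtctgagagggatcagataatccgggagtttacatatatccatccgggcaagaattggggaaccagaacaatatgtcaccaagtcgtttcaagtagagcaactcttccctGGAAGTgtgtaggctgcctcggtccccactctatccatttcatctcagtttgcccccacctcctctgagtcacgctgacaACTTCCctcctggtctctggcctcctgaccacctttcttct
Ctsd (mm10, chr7:142387828-142388077, - strand): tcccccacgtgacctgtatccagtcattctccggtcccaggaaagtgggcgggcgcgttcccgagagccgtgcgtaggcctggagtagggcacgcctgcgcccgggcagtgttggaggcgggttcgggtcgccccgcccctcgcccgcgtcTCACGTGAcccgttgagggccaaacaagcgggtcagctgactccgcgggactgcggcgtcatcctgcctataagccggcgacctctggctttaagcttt
Spp1 (mm10, chr5:104434861-104435110, + strand): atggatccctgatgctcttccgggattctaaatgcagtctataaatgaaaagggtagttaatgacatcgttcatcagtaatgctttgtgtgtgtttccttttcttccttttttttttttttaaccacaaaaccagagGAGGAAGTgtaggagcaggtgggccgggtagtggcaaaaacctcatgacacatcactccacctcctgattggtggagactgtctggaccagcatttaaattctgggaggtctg
Capitals mark the letters GGAAGT or their reverse complement, the core read by ETS factors such as PU.1, in Cst7 and Itgax. They mark TCACGTGA, the E-box read by TFEB and MITF, in Ctsd, and GAGGAAGT, a longer PU.1 site that contains GGAAGT, in Spp1. The window of another Spp1 start (chr5:104435942-104436191) held no match to any of these letters. GGAAGT was in the window of 9 of the 30 genes (30.0%) and in 23.3% of all genes with a promoter. GAGGAAGT was in 1 of 30, against 2.68% of all, and TCACGTGA in 1 of 30, against 1.22%. These shares are matches of letters and close to the background.

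Overlapping annotation limits some of these values. In GENCODE M21 (mm10) 11 of the 35 genes share exon sequence with another gene, 5 on the same strand and 8 on the opposite one. Ctsd (chr7:142375911-142388038) overlaps Gm49369, Spp1 (chr5:104435118-104441050) Gm42793 and Hif1a (chr12:73901375-73947530) Gm49321 on the same strand. On the opposite strand Ctsb overlaps Fdft1, Cd52 overlaps Crybg2 and Ctsz overlaps Nelfcd. The strand setting of the counting is not given in the sources used here. Reads of such pairs may therefore have been left out or misassigned.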

How the data were processed

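The authors extracted RNA from 10 mg of frozen cortex per mouse, prepared stranded total RNA libraries, mapped 50-base paired reads to mm10 with STAR, and obtained gene counts through its HTSeq mode. They deposited raw counts per gene symbol for each mouse, with no normalization or pooling. Versions, annotation and strand setting are not given in the sources used here. Diet and replicate came from the sample titles. Each library came from 1 mouse. No 2 libraries of a diet were the same library (chi-square per gene 16.1 to 68.3, where sampling noise gives 1).

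The counts were fitted with edgeR 4.0.16 in R 4.3.3 (filterByExpr, TMM factors 0.978 to 1.04, estimateDisp, glmQLFit with robust=TRUE, glmQLFTest), KD against CD with no covariate, and adjusted by Benjamini-Hochberg over 15881 genes. Intervals are 95% intervals of the fitted value. CPM per kb divides by the merged exon length in GENCODE M21. The procedure was also run on simulated counts, and its recovery rates are not reported here. Alternatives were RLE, upper-quartile and library-size scaling, filters of at least 1 count or of 1 CPM in 3 libraries, the likelihood-ratio test, DESeq2 1.42.0, limma-voom (3.58.1), fits without robust estimation, with a replicate block (without CD 4, which has no KD partner) or with Xist, and leaving out each library.

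The 35 genes, their roles and all other lists were chosen with earlier results of these data known. All 35 are named. Of the other lists, genes with an unadjusted p under 0.05 and a few set representatives (such as P2ry12, Apoe and Dcn) are named, and Cdhr1 and Ddx3y were added after their values were seen. Values of some representatives are not reported here. The labels do not say whether the replicate numbers pair the samples. Same-numbered CD and KD libraries deviated together across genes with coefficients of 0.251, 0.195 and 0.098. Differently numbered libraries were not compared, so these values cannot decide it. Replicates 1 and 2 of both diets carried Xist, and replicate 3 of both carried Y-linked transcripts.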

Additional observations from a re-analysis of the deposited data

Results flagged for a closer look

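In 3 of the 35 genes, 1 of the 4 CD libraries stood apart from the others by Dixon's criterion on log2 CPM, where the gap to the nearest library is divided by the range of the group and the 95% critical value for 4 libraries was passed. Chance alone flags about 1 in 20 such groups, or 1.75 of 35. Clec7a in CD 4, at 4.68 CPM against 14.5 to 15.6 CPM, had a gap of 0.936 of the range. Gusb in CD 1, at 25.5 CPM against 19.9 to 20.3 CPM, had a gap of 0.922 of the range. Lgals3 in CD 2, at 1.27 CPM against 0.764 to 0.816 CPM, had a gap of 0.871 of the range. Its counts in CD 1 to CD 4 were 28, 37, 25 and 31, so that gap rests on few reads.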

How the results depend on the processing

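With all 7 libraries, the count of genes higher in KD was 24 of 35 under the RLE, upper-quartile and library-size scalings, the filter of 1 count, the likelihood-ratio test, DESeq2 and the fit without robust estimation, and no gene changed sign there. It was 23 of the 33 genes left by the filter of 1 CPM in 3 libraries, and 22 of 35 under limma-voom, which changed the sign of 2 genes. With Xist as a covariate 1 gene (Ank) passed an unadjusted p of 0.05, against 6.52% of all tested genes. No gene of the 35 had an adjusted p under 0.05 under any setting. The labels do not say whether the replicate numbers pair the samples. The fit with the replicate block also leaves out CD 4, which shares its number with no KD library. There 2 genes passed an unadjusted p of 0.05 (Ccl4 and Ank, both lower in KD), against 5.89% of all tested genes, 22 were higher in KD and the median log2 fold change was 0.02. Without CD 4 and with no block these were 1, 23 and 0.06.

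Leaving out 1 library at a time gave 0 to 1 genes past an unadjusted p of 0.05 (Itgax without CD 3, Ccl4 without CD 4, Gusb without KD 3), 11 to 28 genes higher in KD and a median log2 fold change from -0.083 to 0.26. It gave 1 to 4 genes whose diets did not overlap, where the share of all tested genes was 5.86% to 14.3%. The negative median and the count of 11 came without KD 1. Of the 35 genes 13 kept their sign in all of these fits. Among subsets chosen after the data were seen, leaving out both CD 4 and KD 3 gave 3 genes past an unadjusted p of 0.05 (Cst7, Clec7a and Gusb, against 2.54% of all tested genes) and 6 genes whose diets did not overlap (15.6% of all tested genes). The 4 libraries with Xist gave 4 and 9 genes (9.75% and 41.2% of all tested genes), and Spp1 turned to 0.43. The 3 libraries with Y-linked transcripts gave 1 and 22 genes (4.97% and 66.8% of all tested genes), with 13 genes higher in KD and a median of -0.13, and with 1 KD library no call is drawn from them. The causes were not tested.

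With 3 KD libraries, the 95% intervals of 14 of the 35 genes did not exclude a 2-fold difference between the diets. Genes under 3 CPM, such as Cd22, Ccl4, Lgals3 and Ch25h, rest on few counts.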
